A study of Mus musculus with 72 samples.

Results

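The 10 genes described here are markers of astrocytes: Gfap, Aqp4, Gja1, Slc1a2, Slc1a3, Glul, S100b, Aldh1l1, Sox9 and Fgfr3. They were chosen by name, and every probe set annotated with 1 of these symbols alone was followed, which gave 34 of the 45101 probe sets on the array. Another 1 probe set lists a member beside other symbols and was not used. Each gene is described at its probe set with the highest mean level, called its main probe set below, and the others are set beside it.

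Affymetrix Mouse Genome arrays measured the RNA of whole cerebellum, hippocampus and cerebral cortex from Ts1Cje mice and their disomic littermates at postnatal day 1 (P1), P15, P30 and P84. Ts1Cje mice, a model of Down syndrome, carry in all their cells an extra copy of the MMU16 segment from Sod1 to Znf295, translocated to MMU12 with loss of the telomeric end of that chromosome. None of the 10 genes lies on MMU16 or MMU12. Disomic mice carry the normal set of both chromosomes, no mouse was treated, and litters came from Ts1Cje males and C57BL/6 females. Each of the 24 groups held 3 mice, the 3 regions were taken from the same mice, and each sample was hybridised to its own array.

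Astrocytes are the glial cells that surround synapses and blood vessels. They take up transmitter and potassium, turn glutamate into glutamine for neurons, and pass water and small molecules along a network joined by gap junctions. In the mouse forebrain they arise from radial glia around birth and take on their mature form over the first postnatal weeks, while the cerebellum keeps a distinct type, the Bergmann glia, beside its Purkinje cells. Whole tissue was measured, so that fewer astrocytes and less RNA per astrocyte cannot be told apart in any value below.

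Some arrays stood apart. The disomic P15 replicate 3 arrays labelled hippocampus and cerebellum carried each other's marker genes: the mean of 5 cerebellar genes was 12.2 on the array labelled hippocampus, against 3.75 to 4.23 on the other 5 P15 hippocampal arrays, and 3.99 on the array labelled cerebellum, against 12.2 to 12.3 on the others. Both were left out, which left 70 of 72 arrays and 2 disomic arrays in each of those groups. On 3 disomic replicate 3 arrays (P1 cerebellum, P84 cerebral cortex, P84 hippocampus) the upper quartile was 4.97, 5.23 and 5.51, against 5.65 to 5.93 on the remaining arrays. They are called dim. The methods name female mice, but the Y-linked Eif2s3y was above Xist on 69 of 72 arrays, and the exceptions were the 3 arrays of Ts1Cje P1 replicate 3. Within groups, arrays correlated at 0.934 to 0.995.

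All levels are log2 values as deposited, and a difference of 1 is a 2-fold change. A probe set was called different where limma's moderated t was at least 4 or at most -4 and the Benjamini-Hochberg adjusted p over all probe sets was at most 0.05. Beside each count of member probe sets stands its background, the percentage of all 45101 probe sets called in the same comparison and direction. Where a replicate of a genotype was left out, the fit dropped all arrays of that genotype and replicate number, at every age and in every region. The pooled spread changed with them, so that a call lost or gained is not the effect of 1 array alone.

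The first comparison asked how the astrocyte genes changed over the first postnatal weeks. Between P1 and P15 most of them rose. At P15, 9 of the 10 genes were higher in the cerebral cortex and Sox9 was not called, 8 were higher in the hippocampus, and in the cerebellum 5 were higher while Aldh1l1 and Sox9 were lower. Of the 34 member probe sets, 26 in the cerebral cortex were higher (background 11.6%) and 0 lower (background 13.7%), and 27 had an unadjusted p under 0.05. The hippocampus had 24 higher (9.67%) and 1 lower (10.2%), and the cerebellum 13 higher (11.8%) and 4 lower (11.4%). The median P15 minus P1 difference of the 10 main probe sets was 1.99 for the cerebral cortex, 1.51 for the hippocampus and 1.00 for the cerebellum, beside medians of 0.00, -0.02 and -0.05 over all probe sets.

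**Figure D1:**
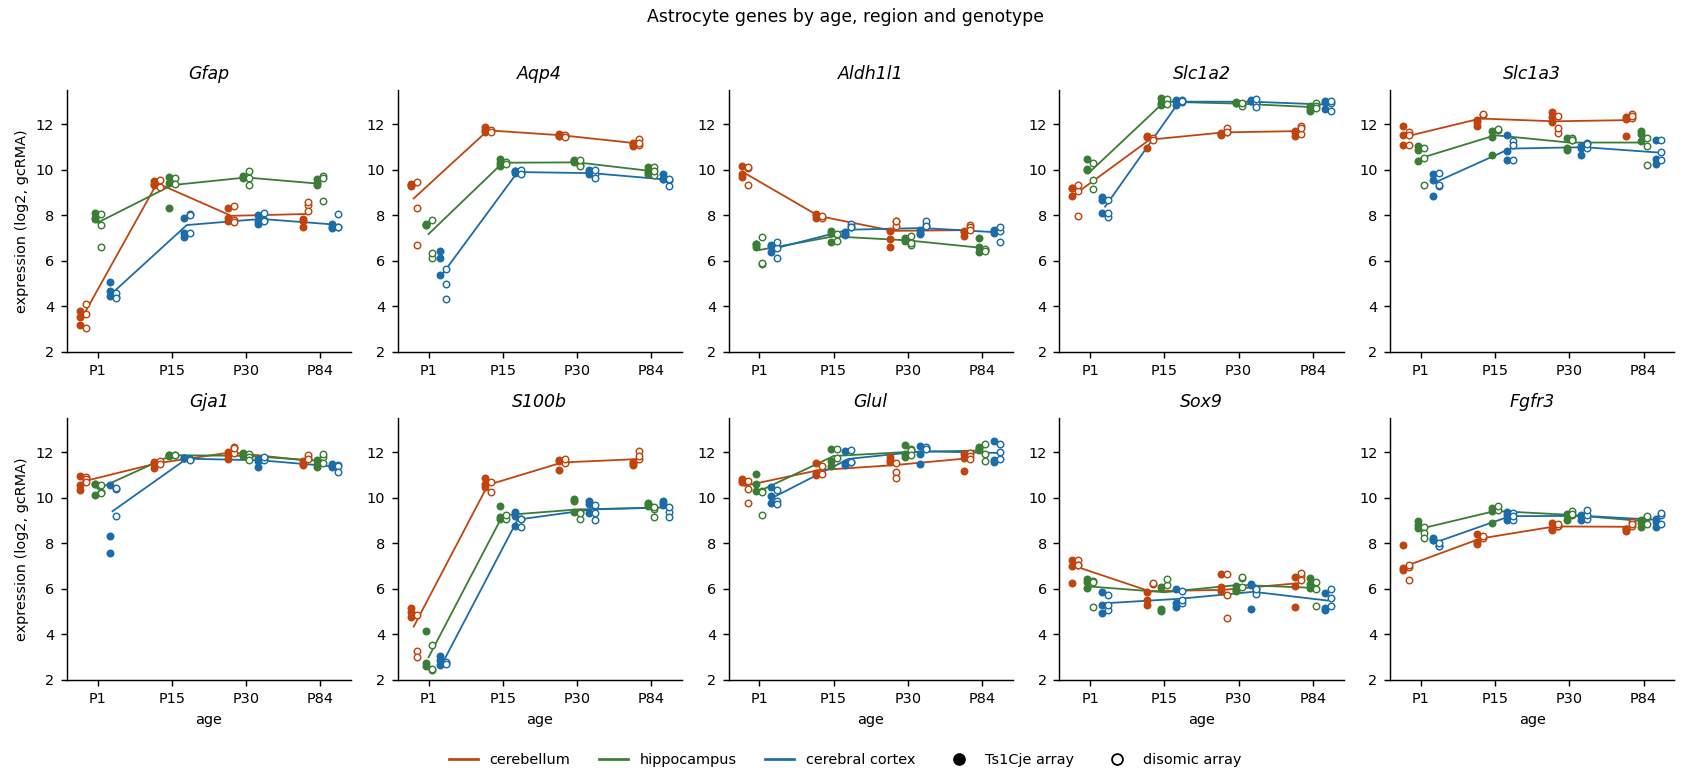
Level of the main probe set of each astrocyte gene (log2) by age, 1 panel a gene; filled points are Ts1Cje arrays, open points disomic arrays, and lines join the means of both genotypes in the cerebellum, hippocampus and cerebral cortex. S100b climbed by more than 6 between P1 and P15 in all 3 regions, Aldh1l1 was at its highest in the P1 cerebellum (mean 9.86), and Sox9 moved little outside the cerebellum.

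S100b encodes a small calcium-binding protein that is also found in part of the oligodendrocyte lineage. It had the largest rise of the 10 genes in each region. Cortical arrays lay at 8.72, 9.06 and 9.38 (lowest, median and highest of 6 arrays) at P15, against 2.65, 2.76 and 3.03 at P1. The P15 cerebellum had 10.48, 10.59 and 10.87 in Ts1Cje and 10.24 and 10.69 in disomic mice, against a lowest, median and highest value of 2.98, 4.81 and 5.15 at P1. No P15 array came near a P1 array. The differences were 6.23 for the cerebellum, 6.24 for the hippocampus and 6.23 for the cerebral cortex (standard errors 0.22, 0.22 and 0.21; limma, adjusted p at most 2.1e-29). At P1 the group means of S100b in the cerebral cortex and hippocampus lay below the median of their arrays, so that no signal above background was established there and the size of the rise from it is uncertain. The 5 measured oligodendrocyte genes (among them Mbp, Mog and Mag) rose in the same interval in all 3 regions, with medians of 5.37, 6.66 and 6.10 in cerebral cortex, cerebellum and hippocampus, and their part in the S100b values was not tested.

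Gfap encodes the intermediate filament of mature and reactive astrocytes and of the radial cells of the dentate gyrus. In the cerebellum it lay at 9.39, 9.52 and 9.33 in Ts1Cje and 9.56 and 9.26 in disomic mice at P15, against 3.06, 3.59 and 4.10 (lowest, median, highest of 6) at P1. This was a rise of 5.85 (standard error 0.22, adjusted p = 1.78e-28). The P1 values lay near the medians of their arrays (3.25 to 3.37), and the lowest was below them, so that the size of this rise is uncertain. The cortical rise was 2.98, with P15 arrays at 7.03 to 8.06 and P1 arrays at 4.36 to 5.07. The hippocampus already held 6.59 to 8.09 at P1, and rose by 1.65 to a P15 mean of 9.32 (adjusted p = 1.08e-08). The groups did not overlap in any region.

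Aqp4 encodes the water channel of the astrocyte endfoot at blood vessels. Its cortical arrays measured 9.80, 9.90 and 10.004 (lowest, median, highest) at P15, against 4.30, 5.50 and 6.41 at P1, a rise of 4.43 (standard error 0.23, adjusted p = 7.29e-23). It rose by 3.14 in the hippocampus and by 3.00 in the cerebellum. P1 arrays were spread widely, with SDs of 0.77, 0.74 and 1.09 in cerebral cortex, hippocampus and cerebellum (n = 6 each), against 0.07, 0.10 and 0.10 at P15 in the same order (n = 6, 5 and 5).

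Gja1 encodes the connexin that forms most gap junctions of astrocytes. It rose by 2.31 in the cerebral cortex (11.67 to 11.75 at P15, against 7.55 to 10.56 at P1; adjusted p = 3.09e-13) and by 1.48 in the hippocampus (11.82 to 11.88, against 10.11 to 10.61; adjusted p = 4.07e-07). In the cerebellum the difference was 0.80 and its t missed the threshold, although the adjusted p was 0.00356. The main probe set of Gja1 is of a kind that may share probes with other transcripts. The Gja1 probe set of next highest level, without that mark, gave 1.47 in the hippocampus and 2.40 in the cerebral cortex.

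Slc1a2 and Slc1a3 encode the glutamate transporters GLT-1 and GLAST, and Glul encodes glutamine synthetase, which turns the glutamate taken up into glutamine. Slc1a2 had the steeper course of the transporters. Its cortical arrays lay at 12.84, 13.01 and 13.06 (lowest, median, highest) at P15, against 7.92, 8.38 and 8.81 at P1. The rise was 4.62 (standard error 0.15, adjusted p = 8.84e-31), or 24.6-fold. In the hippocampus it rose by 3.07 and in the cerebellum by 2.39, and the P15 and P1 arrays did not overlap in any region. Slc1a3, which radial glia already express, rose by 1.47 in the cortex (10.42 to 11.52 at P15, against 8.84 to 9.87 at P1; adjusted p = 2.79e-07) and by 1.00 in the hippocampus (adjusted p = 0.000663), where the call was lost without replicate 1 or 2 of Ts1Cje and without replicate 1 or 3 of disomic mice (0.77 to 1.07). In the cerebellum the difference was 0.79 (standard error 0.24) and it was not called. Glul rose by 1.67 in the cerebral cortex (11.45 to 12.07, against 9.71 to 10.45) and by 1.54 in the hippocampus, and its cerebellar difference of 0.69 (adjusted p = 0.00382) missed the t threshold.

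Across the 24 group means, Slc1a2 and Glul had the highest correlation of any 2 members (Pearson's r = 0.94). The 250 bases before the annotated start of both are shown for that reason, from RefSeq (GRCm38.p6), 5′ to 3′ on the strand of the gene. For Slc1a2 this is chr2:102706188-102706437 on the plus strand, a start that lies inside the annotated span of the gene, and for Glul it is chr1:153899679-153899928 on the plus strand. Capitals mark TTGGC, one arm of the palindrome bound by nuclear factor I, here read on the minus strand and thus written GCCAA.
Slc1a2: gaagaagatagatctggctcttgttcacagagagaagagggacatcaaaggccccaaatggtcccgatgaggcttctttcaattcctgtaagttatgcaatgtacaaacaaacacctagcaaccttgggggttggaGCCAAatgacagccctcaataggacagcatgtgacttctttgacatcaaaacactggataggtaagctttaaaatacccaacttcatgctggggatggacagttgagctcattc
Glul: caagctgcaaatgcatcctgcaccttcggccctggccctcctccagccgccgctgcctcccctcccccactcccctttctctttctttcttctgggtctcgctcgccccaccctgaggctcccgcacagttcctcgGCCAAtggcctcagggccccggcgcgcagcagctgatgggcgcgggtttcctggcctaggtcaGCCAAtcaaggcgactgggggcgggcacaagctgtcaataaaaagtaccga

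Both strands were searched for TTGGC, for the STAT motif TTCNNNGAA and for the SOX motif ACAAT. Slc1a2 held 1 match of TTGGC and Glul held 2, both of which overlap the letters CCAAT of another motif, and neither window held a STAT or SOX match. Of all 32851 promoters of this length in the table, 41.5% held TTGGC, 7.02% the STAT motif and 27.7% the SOX motif. The table had an entry for 8 of the 10 members (9 promoters, as Fgfr3 has 2). TTGGC was found in 3 of the 8 (S100b, with 3 matches, beside the pair above), and Slc1a3 held 1 STAT and 1 SOX match. A match is a description of letters and not of binding.

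Aldh1l1, a folate-metabolising enzyme used as a general astrocyte marker, went in opposite directions. It was highest of all in the P1 cerebellum, and it was lower there at P15, with 7.88, 8.07 and 8.03 in Ts1Cje and 7.89 and 7.99 in disomic mice, against 9.32, 9.93 and 10.16 (lowest, median, highest of 6) at P1. This fall of 1.89 (standard error 0.15, adjusted p = 1.89e-15) stood beside a rise of 0.83 in the cerebral cortex (7.13 to 7.60 at P15, against 6.12 to 6.82 at P1; adjusted p = 2.54e-06). In the hippocampus the difference was 0.60, which was not called. The second probe set of Aldh1l1 lay below the array median in every group.

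Sox9, a transcription factor that astrocytes keep from their glial precursors, was not called in the cerebral cortex (0.20, standard error 0.25, 95% interval of the fit from -0.30 to 0.69) or in the hippocampus (-0.25). In the cerebellum it was lower at P15, at 5.83, 5.52 and 5.27 in Ts1Cje and 6.20 and 6.25 in disomic mice, against 6.24, 7.04 and 7.27 (lowest, median, highest) at P1. The difference of -1.09 (adjusted p = 0.000534) was close to the t threshold and lost its call without the dim arrays (-1.11) and in 5 of the 6 fits that leave out a replicate. Fgfr3, a fibroblast growth factor receptor of astrocyte precursors and astrocytes, rose by 1.20 in the cerebellum, 0.78 in the hippocampus and 1.15 in the cerebral cortex (adjusted p at most 3.81e-06), and with the exchanged arrays included the hippocampal value was 0.55 and not called. Its P15 and P1 arrays did not overlap in the cerebral cortex (8.997 to 9.37, against 7.86 to 8.24).

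The cerebellum of P1 differed from the later one in more than astrocytes. The 4 measured genes of dividing cells (Mki67, Top2a, Cdk1, Birc5) averaged 2.94 to 3.89 per array at P15, against 7.33 to 9.13 at P1, and all 4 fell. Cortical averages of the same genes were 2.63 to 2.85 at P15, against 4.20 to 5.28 at P1. Their part in the falls of Aldh1l1 and Sox9 was not tested.

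After P15 few values moved. From P15 to P30, 1 cortical member probe set was higher (background 1.02%) and 0 lower (1.2%), namely the second one of S100b (0.82, adjusted p = 0.00713). In the hippocampus none was called in either direction (backgrounds 0.831% and 0.949%), with 5 at an unadjusted p under 0.05. The cerebellum had 2 higher (2.04%) and 3 lower (2.7%). There both probe sets of S100b rose, the main one to 11.20, 11.60 and 11.71 (lowest, median, highest of 6) at P30, against 10.24 to 10.87 at P15, a difference of 0.99 (adjusted p = 0.00107). Gfap fell by 1.44 in the cerebellum (adjusted p = 2.07e-06). Its 6 P30 arrays lay at 7.70 to 8.42, below all 5 P15 arrays at 9.26 to 9.56. Aldh1l1 fell by 0.65 (adjusted p = 0.00192). The calls of S100b and Aldh1l1 were lost when single replicates were left out (0.88 to 0.93 for S100b without Ts1Cje replicate 2 or disomic replicate 1, and -0.54 to -0.65 for Aldh1l1 without Ts1Cje replicate 2 or 3 or disomic replicate 1), while Gfap kept its call in all 14 alternatives run on the same probe set.

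From P30 to P84 no member probe set was called in any region, neither higher (backgrounds 0.111% in cerebral cortex, 0.346% in cerebellum, 0.0554% in hippocampus) nor lower (0.337%, 0.676% and 0.359%). An unadjusted p under 0.05 was reached by 2, 2 and 3 of the 34 in that order. The main differences lay between -0.36 and 0.30 for the cerebellum, between -0.38 and 0.08 for the hippocampus and between -0.39 and 0.09 for the cerebral cortex.

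**Figure D2:**
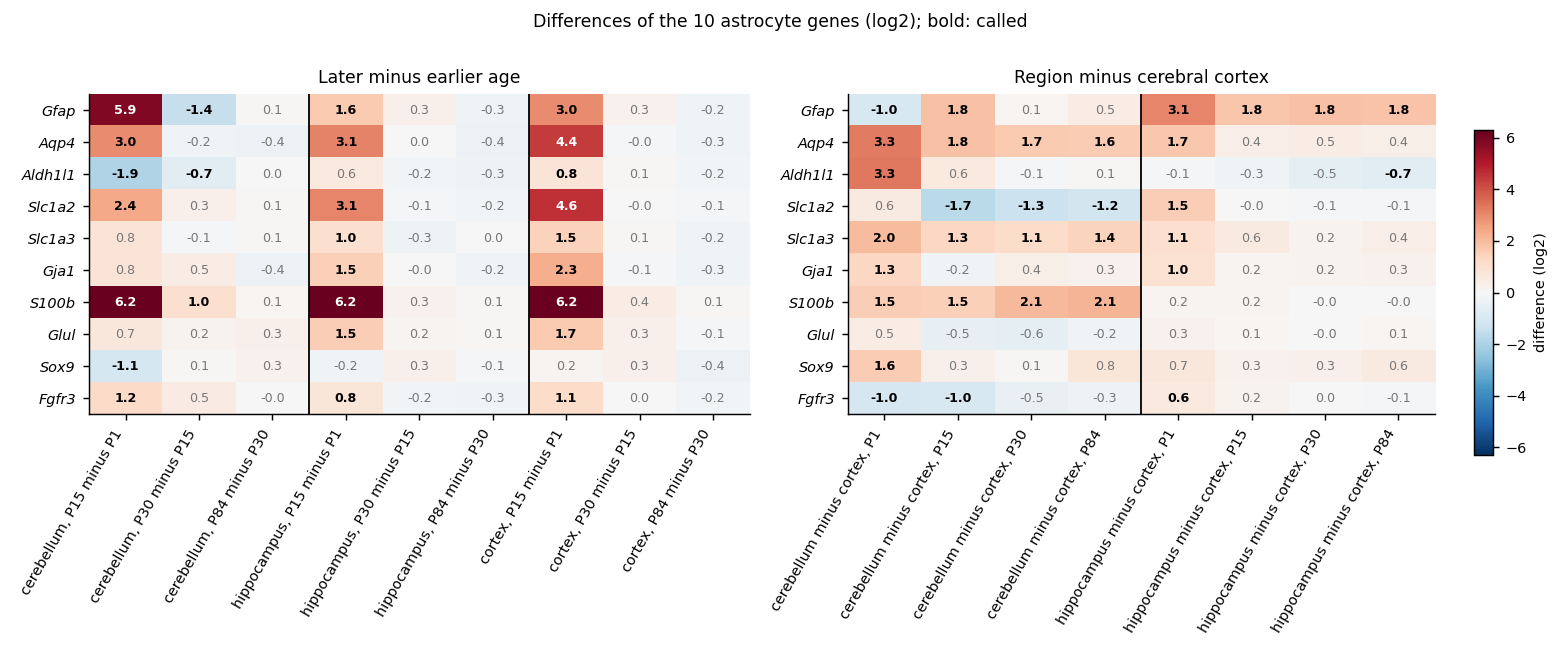
Differences of the main probe sets (log2), with bold numbers where the difference was called: later minus earlier age within each region on the left, and cerebellum or hippocampus minus cerebral cortex at each age on the right. The steps from P15 to P30 hold 3 called values and those from P30 to P84 none, while the Gfap row is called in the hippocampus at every age.

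The next comparison asked how the regions differed at each age. At the main probe sets, the cerebellum held more Aqp4, Slc1a3 and S100b than the cerebral cortex at all 4 ages, and less Slc1a2 from P15 on. Of the 34 member probe sets, 17 were higher in the cerebellum at P1 (background 6.86%) and 3 lower (7.97%). The counts were 11 (9.33%) and 7 (8.88%) at P15, 8 (9.39%) and 4 (9.22%) at P30, and 8 (9.66%) and 4 (8.66%) at P84.

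Aqp4 was 3.26 higher in the cerebellum at P1, 1.83 at P15, 1.66 at P30 and 1.59 at P84. At P84 the cerebellar arrays lay at 11.02, 11.15 and 11.36 (lowest, median, highest of 6), against 9.30, 9.59 and 9.79 in the cerebral cortex. S100b was 1.53 higher in the cerebellum at P1 and at P15, 2.07 at P30 and 2.12 at P84, where the arrays lay at 11.43 to 12.06, against 9.15 to 9.84 in the cerebral cortex. Both genes separated the regions fully at P84. The size of the S100b difference at P1 is uncertain, as the cortical group means lay below the array median. The second probe set of S100b gave 0.75 at P1 (adjusted p = 0.00303), which was not called. Slc1a3, which Bergmann glia express strongly, was higher in the cerebellum by 2.00 at P1, 1.32 at P15, 1.14 at P30 and 1.43 at P84 (adjusted p at most 5.05e-05).

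Slc1a2 ran the other way. It was 1.67 lower in the cerebellum than in the cerebral cortex at P15 (adjusted p = 1.39e-12), 1.35 lower at P30 and 1.16 lower at P84. At P84 its cerebellar arrays measured 11.47, 11.68 and 11.94 (lowest, median, highest), against 12.57, 12.95 and 13.03 in the cerebral cortex. At P1 the cerebellum had a mean of 8.93, against 8.37 in the cerebral cortex, which was not called. Fgfr3 was 1.04 lower in the cerebellum at P1 and 0.99 lower at P15, and was not called at P30 (-0.46) or P84 (-0.30).

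Other genes differed between cerebellum and cerebral cortex at the early ages. Aldh1l1 was 3.33 higher in the cerebellum at P1 (9.32 to 10.16, against 6.12 to 6.82; adjusted p = 9.59e-26), and was not called at any later age. Sox9 was 1.62 higher and Gja1 1.30 higher in the P1 cerebellum, and neither was called later. Gfap was lower in the cerebellum at P1, with 3.06, 3.59 and 4.10 (lowest, median, highest), against 4.36, 4.51 and 5.07 in the cerebral cortex. The cerebellar values lay near the array medians, so that the size of this difference is uncertain. At P15 it was 1.84 higher in the cerebellum, and at P30 and P84 the 2 regions overlapped (differences of 0.14 and 0.46). Glul was called at its main probe set at no age.

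The hippocampus differed from the cerebral cortex mainly at P1, in 6 of the genes, and after P1 mainly in Gfap. At P1, 15 member probe sets were higher in the hippocampus (background 1.62%) and 0 lower (1.34%), with 20 at an unadjusted p under 0.05. The counts were 3 (1.85%) and 0 (2.06%) at P15, 3 (2.59%) and 0 (2.61%) at P30, and 3 (2.59%) and 1 (2.82%) at P84. All 3 of the higher probe sets at each later age were those of Gfap, and the lower one was Aldh1l1.

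Gfap at P1 lay at 7.88, 7.85 and 8.09 in Ts1Cje and at 7.58, 8.06 and 6.59 in disomic hippocampus, against 4.43, 5.07 and 4.69 in Ts1Cje and 4.39, 4.58 and 4.36 in disomic cerebral cortex. Every hippocampal array was above every cortical one. The difference was 3.09 (standard error 0.21, adjusted p = 6.17e-17), and it was 1.76 at P15, 1.82 at P30 and 1.79 at P84. Aqp4 was 1.70 higher, Slc1a2 1.54, Slc1a3 1.06, Gja1 0.98 and Fgfr3 0.60 higher in the P1 hippocampus, and their later differences from the cerebral cortex were not called. The P1 calls of Slc1a3, Gja1 and Fgfr3 were lost in at least 1 fit that left out a replicate (0.84 for Slc1a3, 0.63 to 1.02 for Gja1 and 0.53 to 0.59 for Fgfr3). At P84 Aldh1l1 was 0.69 lower in the hippocampus (6.39 to 7.01, against 6.83 to 7.49 in the cerebral cortex; adjusted p = 0.000372), a call lost without Ts1Cje replicate 2 (-0.62) or disomic replicate 1 (-0.66).

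Ordered by their mean levels over the 12 combinations of region and age, the genes had different leading places. Gfap was highest in the P30 hippocampus (9.66), followed by the P15 cerebellum (9.41) and the P84 and P15 hippocampus (9.38 and 9.32), and the arrays of these 4 overlapped. Aqp4 was highest in the P15 cerebellum (11.73), followed by the P30 and P84 cerebellum (11.51 and 11.16), ahead of all other places. Slc1a2 stood at 12.75 to 12.99 in the hippocampus and cerebral cortex of P15 and later, then at 11.32 to 11.70 in the cerebellum of the same ages, with no overlap of the arrays between these sets. Gja1 and Glul reached similar levels in all 3 regions from P15 on (group means of 11.36 to 11.99 for Gja1 and 11.21 to 12.07 for Glul). At P1 the lowest place was the cerebral cortex for Aqp4, Slc1a2, Slc1a3, Gja1, S100b, Glul and Sox9, the cerebellum for Gfap and Fgfr3, and the hippocampus for Aldh1l1. For at least Aldh1l1, S100b, Glul, Aqp4 and Gja1 the P1 arrays of hippocampus and cerebral cortex overlapped.

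Whether the change between P1 and P84 itself differed between regions was tested by contrasts of the changes. Against the cerebral cortex, 15 of 34 member probe sets changed differently in the cerebellum (background 15.7%) and 7 in the hippocampus (2.94%). Aldh1l1 had a P84 minus P1 change of -2.51 in the cerebellum and 0.72 in the cerebral cortex, so that the changes differed by -3.23 (standard error 0.20, adjusted p = 6.11e-19). Slc1a2 rose by 2.77 in the cerebellum and by 2.84 in the hippocampus, against 4.49 in the cerebral cortex, which are differences of -1.72 (adjusted p = 4.64e-09) and -1.65 (adjusted p = 1.19e-07). Gfap rose by 4.50 in the cerebellum, from P1 values near the array medians that leave the size uncertain. It rose by 1.71 in the hippocampus and by 3.00 in the cerebral cortex. Both differences from the cerebral cortex were called, as 1.49 for the cerebellum and -1.29 for the hippocampus. A Gfap probe set of lower level, below the array median in 14 of the 24 groups, gave 1.41 for the hippocampus. The second bright one gave -0.64 (adjusted p = 0.241), which was not called. At its main probe set Aqp4 rose less in the cerebellum (-1.67) and the hippocampus (-1.33) than in the cerebral cortex, but its second probe set, with a mean of 8.37, gave -0.94 (adjusted p = 0.0697) and -0.59 (adjusted p = 0.630), and neither was called. Fgfr3 rose more in the cerebellum (0.74).

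The third comparison, which the study was designed for, set Ts1Cje against disomic mice in each region and at each age. Of 120 differences at the main probe sets, 106 lay within 0.5 of 0, 60 were above 0, and 13 had an unadjusted p under 0.05. Over all 34 probe sets, 33 of 408 differences had such a p and 1 was called, and over all probe sets of the array 5.17% of the values had such a p. No member was called in the cerebral cortex at P1, P15, P30 or P84 (backgrounds 0.0333%, 0.0111%, 0.0288% and 0.0732%), in the cerebellum at P15, P30 or P84 (0.00887%, 0.0687% and 0.153%), or in the hippocampus at P1, P15, P30 or P84 (0.0244%, 0.0111%, 0.0333% and 0.0887%). The standard error of a single difference at the main probe sets ran from 0.18 for Fgfr3 to 0.39 for Sox9.

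**Figure D3:**
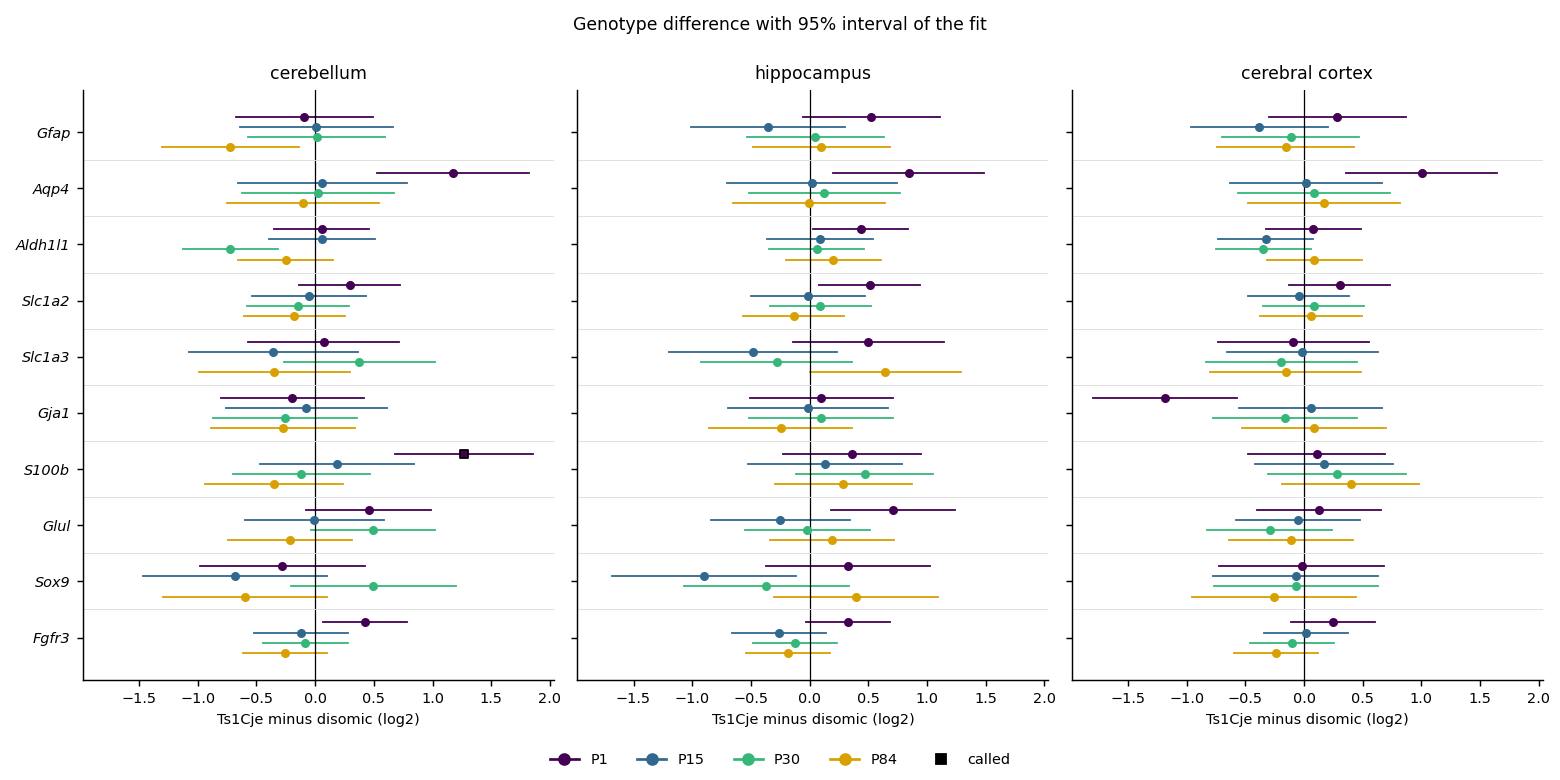
Ts1Cje minus disomic difference of each astrocyte gene (log2) at its main probe set, by region and age, with the 95% interval of the fit; the square marks the 1 called value. Most intervals hold 0, and the P1 values of S100b and Aqp4 in the cerebellum and of Gja1 in the cerebral cortex lie farthest from it.

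The called value was S100b in the P1 cerebellum, where 1 of 34 member probe sets was called (background 0.661%). It measured 4.76, 4.97 and 5.15 in Ts1Cje and 3.25, 4.86 and 2.98 in disomic mice. The disomic replicate 2 lay within the Ts1Cje range, the other disomic arrays lay below it, and the lowest of them was the dim array. These 2 disomic values lay below the medians of their own arrays (3.29 and 3.37) and cannot be told from background, so that the size of the difference is uncertain. The difference of 1.27 (standard error 0.29, adjusted p = 0.0173) was 0.91 without the dim array and no longer called (adjusted p = 0.425), and the call was also lost without Ts1Cje replicate 2 or 3 (1.26 and 1.17) and without disomic replicate 1 (1.04). The second probe set of S100b differed by 0.14. In this comparison 18.6% of all probe sets had an unadjusted p under 0.05, more than in any other genotype comparison.

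Aqp4 at P1 showed a pattern of spread. The Ts1Cje arrays measured 9.36, 9.31 and 9.29 in the cerebellum, against 8.30, 9.46 and 6.69 in disomic mice. In the hippocampus they measured 7.59, 7.63 and 7.55, against 6.12, 7.81 and 6.32. Their cortical values were 5.37, 6.41 and 6.13, against 4.98, 5.63 and 4.30. The Ts1Cje arrays lay close together in the cerebellum and hippocampus, and in every region the disomic replicate 2 was the highest of its group and overlapped the Ts1Cje arrays, or exceeded them. The differences were 1.17 (adjusted p = 0.0515), 0.84 (adjusted p = 1.00) and 1.00 (adjusted p = 0.733) in the order cerebellum, hippocampus and cerebral cortex, and none was called. Without disomic replicate 2 they were 1.83 (adjusted p = 6.99e-06), 1.37 (0.00633) and 1.33 (0.0105), and all 3 were called. Leaving out any other replicate number of either genotype gave no call. The values then ran from 0.44 to 1.25 in the cerebellum, from 0.53 to 0.86 in the hippocampus and from 0.66 to 1.30 in the cerebral cortex. Without the dim array the cerebellar difference was 0.44. From P15 on, the Aqp4 differences lay between -0.10 and 0.17.

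**Figure D4:**
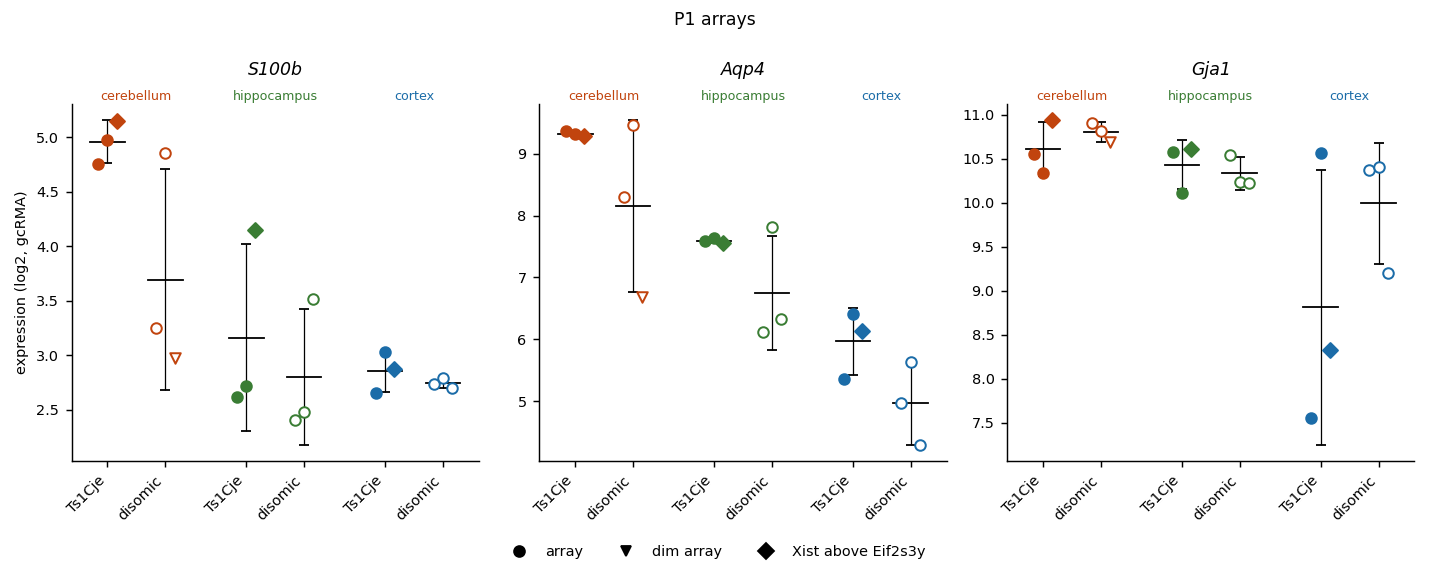
P1 arrays of S100b, Aqp4 and Gja1 (log2) by region and genotype, with group means and SDs (n = 3); triangles mark the dim array and diamonds the arrays with Xist above Eif2s3y. Aqp4 lay between 9.29 and 9.36 on the Ts1Cje and between 6.69 and 9.46 on the disomic cerebellar arrays, and Gja1 was spread from 7.55 to 10.56 on the Ts1Cje cortical arrays.

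Gja1 in the P1 cerebral cortex measured 7.55, 10.56 and 8.32 in Ts1Cje and 10.37, 10.41 and 9.20 in disomic mice. The Ts1Cje replicate 2 was above every disomic array and the other 2 below all of them. The difference was -1.18 (standard error 0.30, adjusted p = 0.241), and without Ts1Cje replicate 2 it was -2.06 and called (adjusted p = 7.41e-08). Leaving out any other replicate number of either genotype gave values from -1.58 (disomic replicate 3) to -0.55 (Ts1Cje replicate 1), none of them called. At P1 the Gja1 differences in the cerebellum and hippocampus were -0.19 and 0.10. From P15 on, the Gja1 differences lay between -0.28 and 0.10.

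In the P1 hippocampus all 10 main probe sets were higher in Ts1Cje than in disomic mice, by 0.10 to 0.84 (median 0.47), 4 of them with an unadjusted p under 0.05 (Aqp4, Glul, Slc1a2 and Aldh1l1) and none called. The Ts1Cje replicate 3 array was the highest of its group for 8 of the 10 genes. The mean of the oligodendrocyte genes on it was 6.12, against 3.96 and 3.99 on the other Ts1Cje arrays and 3.95 to 4.36 on the disomic arrays, and its part in these values was not tested. Without that array S100b was at -0.13 and Gja1 at 0.01, so that the count of 10 rests on it, and the S100b means of both groups lay below the array median. The disomic replicate 3 array was low in several lists, with a mean of 9.77 for neuronal genes, against 10.3 to 10.6 on the other 5 arrays, and of 6.31 for further astrocyte genes, against 6.71 to 6.98, and the part of this was not tested either. In the P84 cerebellum all 10 were lower in Ts1Cje mice, with differences of -0.72 to -0.10 (median -0.27), none called and 1 at an unadjusted p under 0.05. That was Gfap, which lay at 7.84, 7.75 and 7.48 in Ts1Cje, below all disomic arrays at 8.45, 8.18 and 8.60. The 10 values of a comparison come from the same arrays and are not independent.

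Other differences that did not pass were Aldh1l1 in the P30 cerebellum (7.29, 6.59 and 6.98 in Ts1Cje, against 7.53, 7.73 and 7.76; difference -0.72, adjusted p = 0.286) and Sox9 in the P15 hippocampus (-0.90, adjusted p = 1.00, with 2 disomic arrays). The Aldh1l1 groups did not overlap. The group SDs of the members were widest at P1, with a median of 0.342, and 0.217, 0.152 and 0.179 at P15, P30 and P84, beside 0.184, 0.167, 0.159 and 0.182 over all probe sets at the same ages.

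Averaged over the 4 ages, no member was called in the cerebral cortex (background 0.217%), the cerebellum (0.286%) or the hippocampus (0.202%), with 1, 3 and 2 of 34 probe sets at an unadjusted p under 0.05. The averages of the main probe sets lay between -0.27 (Sox9) and 0.29 (Aqp4) for the cerebellum, between -0.14 (Sox9) and 0.31 (S100b) for the hippocampus, and between -0.30 (Gja1) and 0.32 (Aqp4) for the cerebral cortex. The second probe set of S100b came nearest to a call, with 0.60 in the hippocampus (adjusted p = 0.0708). A difference of the averages between regions was called for 0 of 34 probe sets (backgrounds 0% for the cerebellum and 0% for the hippocampus against the cerebral cortex), with 0 and 3 probe sets at an unadjusted p under 0.05. A change of the genotype difference with age was called for no member in the cerebral cortex (background 0%), the cerebellum (0.0665%) or the hippocampus (0.00443%). The smallest p of that F test was that of S100b in the cerebellum (unadjusted p = 0.00143, adjusted p = 0.270).

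Probe sets of 1 gene did not always move together. For Slc1a3, 3 further probe sets rose with the main one between P1 and P15 in the cerebral cortex (1.74, 1.82 and 1.60), whereas a dimmer one with a mean of 3.76 fell in the cerebellum (-1.40, adjusted p = 4.7e-07) and hippocampus (-1.16, adjusted p = 2.05e-05). For Slc1a2 all 5 probe sets rose in the hippocampus, by 1.26 to 4.12, and in the cerebral cortex, by 1.75 to 6.31. The 3 probe sets of Gfap and the 3 of Aqp4 rose in every region. Of the 34 probe sets, 22 had a mean of at least 5.

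A list of 36 further astrocyte genes, of which 35 were measured, took the same direction between P1 and P15. At P15, 30 were higher and 2 lower in the cortex, 26 and 1 in the cerebellum, 25 and 2 in the hippocampus, beside 16.2% and 16.3%, 13.4% and 15.5%, and 13.7% and 13.4% of the 18194 genes. The list medians were 2.20, 1.60 and 1.81, and those of all genes 0.02, -0.08 and -0.01. Among the 6 of highest level, Clu (clusterin) rose by 2.75 in the cerebellum, 2.48 in the hippocampus and 3.10 in the cerebral cortex. In the same order Apoe (the apolipoprotein of astrocytes) rose by 1.47, 1.99 and 2.50, Aldoc (aldolase C) by 3.11, 1.84 and 2.30, Mt1 (a metallothionein) by 1.67, 1.28 and 2.53, and Sparcl1 (the synapse-promoting protein hevin) by 0.96, 1.62 and 1.84. Nfib, a nuclear factor I protein of glial precursors that neurons also express, fell by 1.21 in the hippocampus and by 2.16 in the cerebral cortex and was not called in the cerebellum (0.34). No gene of the list was called in any of the 12 genotype comparisons, in which 0.00887% to 0.661% of all probe sets were called. At P1 the list had 15 genes higher and 0 lower in the hippocampus than in the cerebral cortex, beside 2.61% and 1.69% of all genes.

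Genes of immature astrocytes and radial glia ran against this course. Of 8 measured, 5 fell in the cerebellum between P1 and P15, 6 in the hippocampus and 4 in the cerebral cortex, beside 15.5%, 13.4% and 16.3% of all genes that fell, and 0 rose, beside 13.4%, 13.7% and 16.2%. Tnc, an extracellular matrix protein of radial glia, fell by 1.81, 4.33 and 3.92 in that order, and Fabp7, a fatty acid binding protein of radial glia, by 1.11, 1.73 and 2.10. Vim, the filament of immature glia, fell by 1.78, 2.09 and 1.32. Hes5, a Notch target, fell by 3.83 in the cerebellum. The Bergmann glia list of 5 genes, which holds Slc1a3 and Aqp4 among the members, was higher in the cerebellum than in the cerebral cortex for all 5 at P1, P15, P30 and P84, ages at which at most 11.0% of all genes were higher. Of 12 reactive astrocyte genes, 1 was called in the 12 genotype comparisons (higher in the P84 cerebellum of Ts1Cje mice, where 0.187% of all genes were called higher), and 6 to 9 of the 12 lay below the array median in each region and age.

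The 10 genes formed a core and some exceptions. Of the 45 pairs, 24 had a Pearson's r above 0.5 and 10 below 0, with a median of 0.56, over 24 group means that share mice and arrays. Aqp4 and S100b followed Slc1a2 and Glul in closeness (r = 0.92). The lowest value was that of Aldh1l1 and Fgfr3 (r = -0.66), and Aldh1l1 and Gfap stood at -0.48. With the mean standardised profile of all 10, Gja1 (0.94), Aqp4 (0.94) and S100b (0.91) correlated most, and Sox9 (0.19) and Aldh1l1 (0.09) least. Among 7745 other genes with a mean of at least 5, the 8 most like that profile were Myo6 (r = 0.97), Apoe (0.97), Mbnl2 (0.97), Prex2 (0.96), Plpp3 (0.96), Ndrg2 (0.96), Tsc22d4 (0.96) and Degs1 (0.95). Apoe and Ndrg2 are also on the list of further astrocyte genes.

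**Figure D5:**
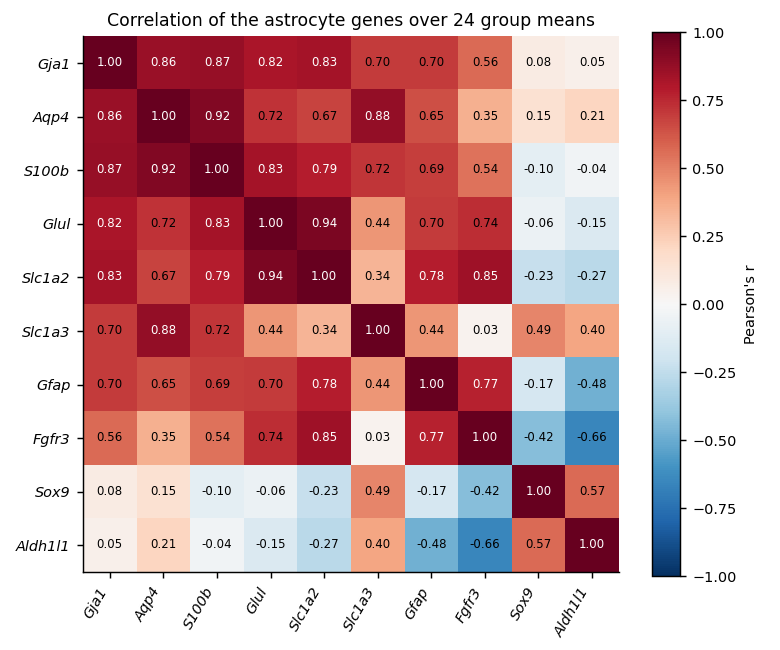
Pearson's r of each pair of astrocyte genes over the 24 group means of their main probe sets. Gja1, Aqp4, S100b, Glul and Slc1a2 form a block of r between 0.67 and 0.94, and the Sox9 and Aldh1l1 rows hold the values below 0.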

How the data were processed

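RNA was labelled by the Two-Cycle Target Labeling protocol. From the scanned arrays the authors computed log2 expression values by gcRMA (background modelled on the base content of the probes, normalization across arrays, 1 value per probe set); no version of it was found in the notes or methods. These deposited log2 values were used with no filter. Scanner files were not used here, so differences of dim probe sets may be understated, and a value below the array median cannot be told from background.

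Groups came from the labels. Of the 45101 probe sets, 34958 had 1 gene symbol, 932 had several and 9211 none; 34754 symbols were matched by gene identifier to the GRCm38.p6 gene table. For lists, the probe set with the highest mean stood for a gene.

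All contrasts came from 1 linear model over 70 arrays with a mean for each of 24 groups, run in limma 3.58.1 under R 4.3.3 (empirical Bayes, 46 residual and 49.7 total degrees of freedom). Age and region contrasts averaged both genotypes. Each p rests on 1 spread per probe set, pooled over the mice of all 24 groups, and arrays of a mouse were taken as independent. The group SDs of the members had a median of 0.342 at P1 and 0.152 at P30. The p values of P1 comparisons may thus rest on too small a spread. On simulated P84 hippocampal data over 45101 probe sets, changes of 0.58, 1 and 2 were called in 20.9%, 73.1% and 92.4% of cases, with 6 false calls. The simulated noise was independent between arrays, with 1 spread per probe set for all groups. These figures therefore may not hold for the P1 comparisons, where the spread was wider. Alternatives were all 72 arrays, no dim arrays, no P1 arrays with Xist above Eif2s3y, quantile normalization and a filter at a mean of 5. Others were the replicate number or the mouse as a block, a trended robust prior, and other probe sets. Each replicate number of a genotype was also left out, at every age and in every region. All 10 members were named, with the 6 further astrocyte genes of highest level and the 8 genes most like the mean profile; Tnc, Fabp7, Vim and Hes5 were named after their values were seen. Members and lists were chosen with earlier results of these data known.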

Additional observations from a re-analysis of the deposited data

Results flagged for a closer look

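For 8 results the change between P1 and P84 differed between regions by a contrast of the changes in limma. Set against the cerebral cortex, the change in the cerebellum differed by 1.49 for Gfap, -1.67 for Aqp4, -3.23 for Aldh1l1, -1.72 for Slc1a2 and 0.74 for Fgfr3. The change in the hippocampus differed by -1.29 for Gfap, -1.33 for Aqp4 and -1.65 for Slc1a2. The calls of Aldh1l1 and Slc1a2 held in all 14 alternatives other than another probe set, as did that of Gfap in the cerebellum, whereas the others lost theirs in at least 1. Leaving out Ts1Cje replicate 1 gave -1.53 for Aqp4 in the cerebellum, and leaving out disomic replicate 2 gave -0.90 for Gfap in the hippocampus. The second probe sets gave -0.94 and -0.59 for Aqp4 in the cerebellum and hippocampus and -0.64 for Gfap in the hippocampus, and these were not called. For Fgfr3, 8 alternatives lost the call, with values of 0.54 to 0.85.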

How the results depend on the processing

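Counts of called member probe sets for the age steps (27, 22 and 25), for the cerebellum against the cerebral cortex (62) and for the hippocampus against it (25) stayed within 1.5 times under every alternative. Of 67 called differences at main probe sets, 54 kept their call in all 14 alternatives run on the same probe set and 0 changed sign. The genotype counts per region, summed over ages, were 1 for the cerebellum, 0 for the hippocampus and 0 for the cerebral cortex. In the cerebellum the count was 0 with all 72 arrays, 0 without the dim arrays, 0 without Ts1Cje replicate 3 of P1 (Xist above Eif2s3y), and 2 with the replicate block (Aqp4 at P1, adjusted p = 0.0123). Leaving out a replicate gave 0 to 2 for the cerebellum, 0 to 1 for the hippocampus and 0 to 4 for the cerebral cortex. The averages over ages had 0 calls, but 0 to 1 for the hippocampus and 0 to 2 for the cerebral cortex when a replicate was left out, and 1 in the hippocampus with the filter and 1 with the replicate block. The P84 minus P1 change in the hippocampus against the cerebral cortex had 7, but 2 with all 72 arrays, 2 without the Ts1Cje P1 replicate 3 arrays, and 2 to 9 when a replicate was left out. The change of the genotype difference with age had 0, and 0 to 4. Whether replicate numbers pair the samples was not settled: deviations of Ts1Cje and disomic arrays of 1 number correlated at -0.26 to 0.70 (median 0.198) over 34 pairs, 24 of them above 0.1, and those of 2 regions of 1 genotype and number at -0.34 to 0.65 (median 0.238) over 69 pairs, 50 above 0.1. As not every pair passed 0.1, no pairing was used. Other probe sets reversed a called difference in 11 cases: Slc1a3 for P15 minus P1 in the cerebral cortex (-0.087 and -0.12) and hippocampus (-1.16 and -0.12) and for the cerebellum against the cerebral cortex at P15 (-0.093), Aldh1l1 in the cerebellum for P30 minus P15 (0.059), and, for the P84 minus P1 change, Aqp4 (0.89) and Fgfr3 (-0.13) in the cerebellum and Gfap (1.41), Aqp4 (0.48) and Slc1a2 (0.053) in the hippocampus. The causes were not tested. Values near or below the array median, among them S100b at P1 in the forebrain and Gfap in the P1 cerebellum, limit what the arrays can show.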
